A study of Mus musculus with 6 samples.

Results

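The erythroid lineage genes described here are 9 genes that mark commitment to and progress through red blood cell formation: the transcription factors Gata1 and Klf1, the erythropoietin receptor Epor, the heme synthesis enzyme Alas2, the adult globins Hba-a1, Hba-a2, Hbb-bs and Hbb-bt, and the carbonic anhydrase Car2. They were chosen by symbol, with earlier results of these data known, and all 9 were found among the 54838 genes of the count table. They were measured in 3' end RNA sequencing of I1DN acute myeloid leukemia (AML) cells from 3 Vehicle mice and 3 AG636 mice. AG636 is an inhibitor of DHODH, an enzyme of de novo pyrimidine synthesis, and was given by oral gavage b.i.d. at 100 mg/kg body weight. The question addressed by the comparison is how inhibition of this pathway in vivo alters transcription in leukemic cells of an immature phenotype.

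Both groups carried the same leukemia on a C57BL/6 background, with the genotype IDH1R132H, DNMT3AR882H and NrasG12D, and differed in the treatment. The leukemia was made by transducing fetal liver hematopoietic stem and progenitor cells with all of these alleles, and thawed leukemic cells were then given to congenic Ptprca mice after sublethal irradiation, so that the 6 mice are recipients of an established leukemia and not independent leukemias. The recipients retain blood-forming cells of their own. The leukemic cells carried fluorescent reporters, and cells described as cKit+CD11b- were sorted by fluorescence from bone marrow and spleen. Whether a reporter was part of the gate was not given in the sources used here. The length of treatment is stated as 1 day in one place and as 4 days in another, and the age of the mice was not given in the sources used here. The labels number the mice 1 to 3 within each group, and mice of the same number are different animals.

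In erythropoiesis, GATA1 activates most genes of the red cell program, often together with TAL1 and KLF1, while GATA2 is active in earlier progenitors and is repressed as GATA1 takes over. Signals from the erythropoietin receptor sustain the survival of committed progenitors. Later precursors turn on ALAS2, which starts heme synthesis, and the α and β globins, whose chains are made in balanced amounts, until globin transcripts dominate the cell's mRNA.

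The stretches of 250 bases upstream of the start sites of Klf1, Hba-a1, Hbb-bs and Hbb-bt are shown. Klf1 was one of the genes called lower with AG636. The ratio of α to β globin counts did not overlap between the groups, although no globin gene was called in the edgeR fit given below. The sequences are from RefSeq (GRCm38.p6, the same base build as the count table), are written 5' to 3' on the strand of the gene and end at the base before the start site. The window of Klf1 is chr8:84901732-84901981 on the plus strand and that of Hba-a1 is chr11:32283422-32283671 on the plus strand. The windows of Hbb-bs and Hbb-bt are chr7:103827929-103828178 and chr7:103813924-103814173, both on the minus strand. Capitals mark a GATA motif, which is GATA with A or T before it and A or G after it, on either strand.
Klf1: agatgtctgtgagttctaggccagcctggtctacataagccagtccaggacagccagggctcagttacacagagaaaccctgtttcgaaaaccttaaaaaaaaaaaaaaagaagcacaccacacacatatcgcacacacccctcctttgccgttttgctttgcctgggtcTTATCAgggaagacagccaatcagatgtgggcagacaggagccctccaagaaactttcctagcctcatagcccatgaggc
Hba-a1: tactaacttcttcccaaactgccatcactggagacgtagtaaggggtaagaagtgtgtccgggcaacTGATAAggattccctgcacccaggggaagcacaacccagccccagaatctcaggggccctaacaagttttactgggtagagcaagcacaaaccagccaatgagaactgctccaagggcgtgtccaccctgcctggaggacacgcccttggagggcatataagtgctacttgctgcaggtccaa
Hbb-bs: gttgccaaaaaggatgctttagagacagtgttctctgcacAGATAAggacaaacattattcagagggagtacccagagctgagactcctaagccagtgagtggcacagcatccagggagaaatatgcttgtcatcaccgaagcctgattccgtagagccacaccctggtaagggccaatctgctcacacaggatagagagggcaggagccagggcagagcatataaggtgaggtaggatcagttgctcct
Hbb-bt: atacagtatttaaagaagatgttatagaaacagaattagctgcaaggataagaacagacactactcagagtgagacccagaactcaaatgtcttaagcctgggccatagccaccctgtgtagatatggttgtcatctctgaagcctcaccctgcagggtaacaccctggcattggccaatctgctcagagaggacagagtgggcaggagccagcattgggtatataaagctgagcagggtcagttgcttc

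RefSeq windows running from 250 bases before to 50 bases after the start site were found for 8 of the 9 genes, all but Car2. A GATA motif was present in 6 of these 8, namely Klf1, Epor, Alas2, Hba-a1, Hba-a2 and Hbb-bs, against 29.8% of 32851 promoter windows of the same length. It began 80 bases before the start of Klf1, 54 before that of Epor, 86 before that of Alas2, 183 before that of Hba-a1 and 210 before that of Hbb-bs. None of these letters occurred in the windows of Gata1 and Hbb-bt. The CACCC motif bound by KLF factors, searched as CCNCNCCC on both strands, was found in 5 of the 8 windows (Gata1, Epor, Alas2, Hbb-bs and Hbb-bt) and in 49.5% of all windows. This 8-base form was found in neither α globin window, nor in that of Klf1. The shorter letters CACCC do occur in the windows of Hba-a1 and Klf1 shown above. CCAAT, on either strand, was found in 5 windows and in 37.4% of all windows. A forward TATAA lay 27 bases before the start of Hba-a1, 30 before that of Hba-a2, 29 before that of Hbb-bs and 28 before that of Hbb-bt. It also lay 207 bases before the start of Alas2. At any position, TATAA occurred in 5 of the 8 windows and in 17.5% of all windows. The windows of Hba-a1 and Hba-a2 shared an identical run of 297 bases, whereas the longest run shared by those of Hbb-bs and Hbb-bt was 14 bases. A motif match is a description of the letters and does not show that a factor bound there.

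The libraries held 4634963 to 7906589 counts each, and 3 counts corresponded to 0.392 to 0.637 CPM (each gene's share of the counted reads of its library, scaled), a limit that for PCR reads covers counting error only. After removal of genes with low counts, 11092 genes were tested with edgeR's quasi-likelihood test, and a gene was called when its Benjamini-Hochberg adjusted p was under 0.05. Of these, 21.3% were called, 11% lower and 10.3% higher with AG636, and the median log2 fold change over all genes tested was 0.029. A list of 6 leukemia markers held Kit and Itgam, whose proteins define the stated sort. Its other genes, Cd34, Mpo, Ly6g and Ptprc, are not in the stated gate. Of the 6, 3 were called higher with AG636, Itgam, Ly6g and Ptprc. The number was 1 without Vehicle replicate 1, 1 without Vehicle replicate 2 and 0 without AG636 replicate 3. Mpo went the other way, at -0.97 to -0.28 on the log2 scale when each mouse was left out, without a call in these fits. The summed level of the 6 was 1495 to 3131 CPM with Vehicle and 1030 to 2470 CPM with AG636. Mpo made up most of this sum, with 63023 counts over all libraries, against 5023 for Cd34 and 990 for Itgam. Kit was between 31.8 and 46.3 CPM in all libraries, and Itgam, which encodes CD11b, was detected in each and was higher with AG636 (12.1 to 27.0 CPM with Vehicle, 31.3 to 60.1 CPM with AG636, log2 fold change 1.21 ± 0.31 (SE), adjusted p = 0.0219 in edgeR). The call for Itgam was not made without Vehicle replicate 1, Vehicle replicate 2, AG636 replicate 1 or AG636 replicate 3, where the adjusted p reached at most 0.0814. Of 12 neutrophil and monocyte markers, 6 were called higher, against 10.3% of all genes tested, and 0 lower. Ltf, Ngp, Camp, S100a9, Lyz2 and Ly6c2 were called, whereas Elane, Prtn3, Ctsg, Ms4a3, S100a8 and Csf1r were not. None of the 12 was at 0 in all libraries, and their summed level was 2064 to 4568 CPM with Vehicle and 4231 to 9631 CPM with AG636. With each mouse left out, 4 to 7 of these were called higher. The part of these other cell states in the values of the erythroid genes was not tested.

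All 9 erythroid genes passed the filter on low counts. With AG636, 2 of the 9 were called lower, Klf1 and Car2, and 0 were called higher. None was higher at an unadjusted p under 0.05 in edgeR, nor called higher by DESeq2 or limma-voom. The genes called lower are 22.2% of the 9, against 11% of all genes tested that were called lower. Because the 9 genes were chosen with earlier results of these data known, this contrast is a description and not a test. The log2 fold changes of 8 of the 9 were below 0, as were those of 5291 of the 11092 genes tested, and their median was -0.80. In only 1 of the 9, Klf1, did every AG636 mouse lie below every Vehicle mouse, a pattern seen in 20.6% of all genes tested. In 0 of the 9 did every AG636 mouse lie above every Vehicle mouse, which was seen in 20.5% of all genes. In RNA from a sorted population, fewer cells of a type and less RNA per cell cannot be told apart. The number of genes called lower depended on single mice. It was 1 without Vehicle replicate 1, 1 without Vehicle replicate 2, 5 without Vehicle replicate 3, 0 without AG636 replicate 1 and 0 without AG636 replicate 3, and it remained 2 without AG636 replicate 2.

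Vehicle replicate 1 had the highest level of every one of the 9 genes. The lowest level was found in AG636 replicate 3 for 5 genes and in Vehicle replicate 3 for the other 4. Summed over the 9 genes, the level was 5727, 3615 and 2137 CPM in Vehicle replicates 1, 2 and 3 and 2859, 3755 and 2297 CPM in AG636 replicates 1, 2 and 3. The lowest sum was thus in a Vehicle mouse, and the groups overlapped. Between 0.210% and 0.544% of all counts fell on these 9 genes, and between 0.149% and 0.416% on the 4 globins.

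**Figure D1:**
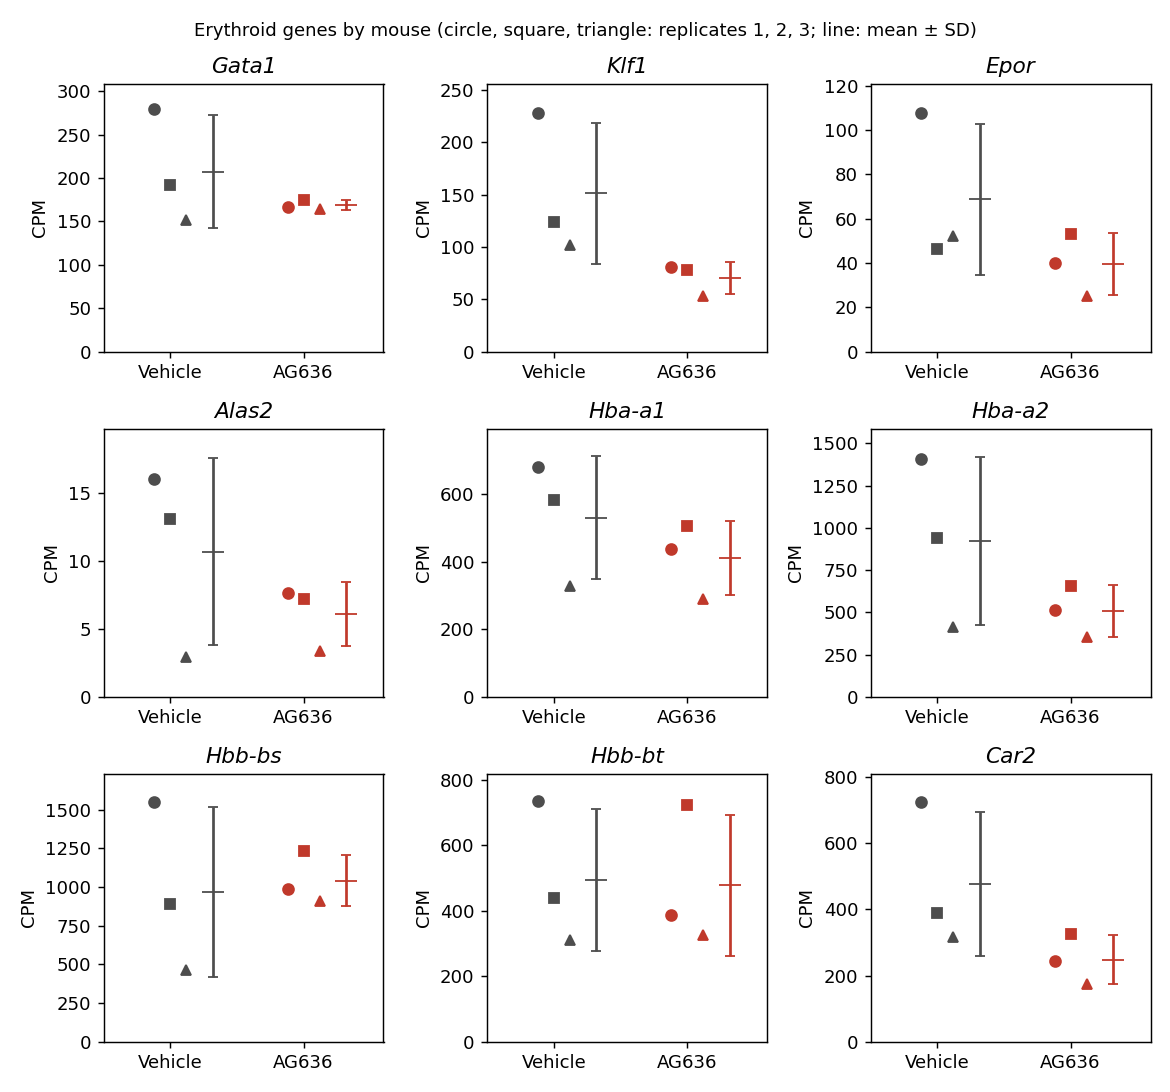
Level of each erythroid gene in CPM (linear axes from 0) by mouse, with Vehicle in grey and AG636 in red, circles, squares and triangles for replicates 1, 2 and 3, and the mean ± SD of 3 mice beside them. Vehicle replicate 1 is the highest point of every panel, and the groups do not overlap for Klf1, where the AG636 mice lie between 53.2 and 80.9 CPM and the Vehicle mice between 102 and 228 CPM.

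Gata1 (ENSMUSG00000031162, chrX:7959260-7978071, minus strand) encodes the factor that specifies the erythroid and megakaryocyte lineages. Its level was 279, 191 and 151 CPM in the Vehicle mice and 167, 175 and 165 CPM in the AG636 mice. The AG636 mice lay close together, within the range of the Vehicle mice. The log2 fold change was -0.30 ± 0.19 (SE), with an adjusted p of 0.296 in edgeR, so no difference in Gata1 was detected with 3 mice per group.

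Klf1 (ENSMUSG00000054191, chr8:84901928-84905291, plus strand) encodes an erythroid factor that acts on the CACCC motifs of globin and other red cell genes. Its level was 228, 124 and 102 CPM with Vehicle and 80.9, 78.4 and 53.2 CPM with AG636. Each AG636 mouse was below each Vehicle mouse. Klf1 fell by 1.10 on the log2 scale (SE 0.28, adjusted p = 0.0238 in edgeR), a level 2.14-fold lower with AG636. The exact two-sided permutation test of the mean CPM gave p = 0.1, the smallest that 3 against 3 mice allow. The call was not made without AG636 replicate 1 (log2 fold change -1.21, adjusted p = 0.0532) or without AG636 replicate 3 (-0.92, adjusted p = 0.0868).

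Epor (ENSMUSG00000006235, chr9:21958897-21963506, minus strand) encodes the receptor through which erythropoietin signals by way of JAK2 and STAT5. Its level was 108, 46.3 and 52.0 CPM with Vehicle and 40.1, 53.2 and 25.1 CPM with AG636. Vehicle replicate 1 stood above all other mice, and AG636 replicate 2 was above the remaining Vehicle mice. The log2 fold change was -0.80 ± 0.34 (SE), with an adjusted p of 0.117 in edgeR. DESeq2 called Epor lower (-0.81, adjusted p = 0.0491).

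Alas2 (ENSMUSG00000025270, chrX:150547375-150570638, plus strand) encodes the erythroid enzyme of the first step of heme synthesis. It had the lowest level of the 9 genes and the fewest counts, 14 to 100 per library. The level was 16.0, 13.1 and 2.93 CPM with Vehicle and 7.65, 7.22 and 3.40 CPM with AG636. Vehicle replicate 3 was the lowest of the 6 mice while Vehicle replicates 1 and 2 were the highest. The log2 fold change was -0.84 ± 0.52 (SE), with an adjusted p of 0.272 in edgeR, and without Vehicle replicate 3 it was -1.28 with an adjusted p of 0.0314. Exons of Alas2 overlap those of Apex2 on the opposite strand, with 293 and 248 counts in all, and because the use of strand in counting is not stated, reads of the overlapping part cannot be assigned with certainty.

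The α globin genes Hba-a1 (ENSMUSG00000069919, chr11:32283511-32284465, plus strand) and Hba-a2 (ENSMUSG00000069917, chr11:32296489-32297298, plus strand) encode the α chains of adult hemoglobin. Hba-a1 was at 683, 585 and 327 CPM with Vehicle and 437, 505 and 291 CPM with AG636. Hba-a2 was at 1407, 939 and 414 CPM with Vehicle and 511, 659 and 352 CPM with AG636. In both genes Vehicle replicates 1 and 2 were the highest mice, AG636 replicate 3 was the lowest, and Vehicle replicate 3 lay below AG636 replicates 1 and 2, so that the groups overlapped. The log2 fold changes were -0.37 ± 0.26 (SE) for Hba-a1, with an adjusted p of 0.332, and -0.86 ± 0.37 (SE) for Hba-a2, with an adjusted p of 0.117 (edgeR). Without Vehicle replicate 3 both were called lower, Hba-a1 at -0.65 with an adjusted p of 0.04999 and Hba-a2 at -1.23 with an adjusted p of 0.0115 (edgeR).

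The β globin genes Hbb-bs (ENSMUSG00000052305, chr7:103826534-103828096, minus strand) and Hbb-bt (ENSMUSG00000073940, chr7:103812524-103813996, minus strand) encode the β chains of adult hemoglobin. Hbb-bs was at 1548, 890 and 463 CPM with Vehicle and 986, 1229 and 908 CPM with AG636. All AG636 mice were above Vehicle replicates 2 and 3 and below Vehicle replicate 1. Hbb-bt was at 734, 437 and 309 CPM with Vehicle and 385, 723 and 324 CPM with AG636. The mice of both groups were spread over the same range. The log2 fold changes were 0.11 ± 0.33 (SE) for Hbb-bs, with an adjusted p of 0.842, and -0.047 ± 0.34 (SE) for Hbb-bt, with an adjusted p of 0.933 (edgeR). Their direction was not stable. Hbb-bs was at -0.25 without Vehicle replicate 3 and at -0.032 without AG636 replicate 2, and Hbb-bt was at 0.33 without Vehicle replicate 1, 0.082 without AG636 replicate 1, 0.17 without AG636 replicate 3 and 0.048 with library size alone.

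The globin copies are close in sequence. Of all 75-base windows of the transcript, the length of a read here, 62.2% of those of Hba-a1 also occur in Hba-a2 and 64.3% of those of Hbb-bs also occur in Hbb-bt. Over the last 300 bases, where 3' end reads fall, the shares were 66.8% and 29.6%. How reads matching both copies were counted is not stated. The division of counts between copies and the total of each pair are therefore uncertain, the more so for the α globins. When the counts of each pair were added before the fit, the α globins were at -0.66 ± 0.32 (SE) on the log2 scale with an adjusted p of 0.165, and the β globins at 0.056 ± 0.32 (SE) with an adjusted p of 0.915 (edgeR).

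Car2 (ENSMUSG00000027562, chr3:14886273-14900770, plus strand) encodes carbonic anhydrase 2, which interconverts carbon dioxide and bicarbonate and is abundant in red cells. Its level was 724, 390 and 316 CPM with Vehicle and 244, 325 and 176 CPM with AG636. AG636 replicate 2 lay just above Vehicle replicate 3, and the groups otherwise separated. Car2 fell by 0.94 on the log2 scale (SE 0.30, adjusted p = 0.0491 in edgeR), and the exact two-sided permutation test of the mean CPM gave p = 0.2. The call was not made without Vehicle replicate 1 (-0.53, adjusted p = 0.134), Vehicle replicate 2 (-1.08, 0.0760), AG636 replicate 1 (-0.93, 0.122) or AG636 replicate 3 (-0.74, 0.154), nor with DESeq2 (adjusted p = 0.116), limma-voom (0.0551) or library size alone (0.0628).

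**Figure D2:**
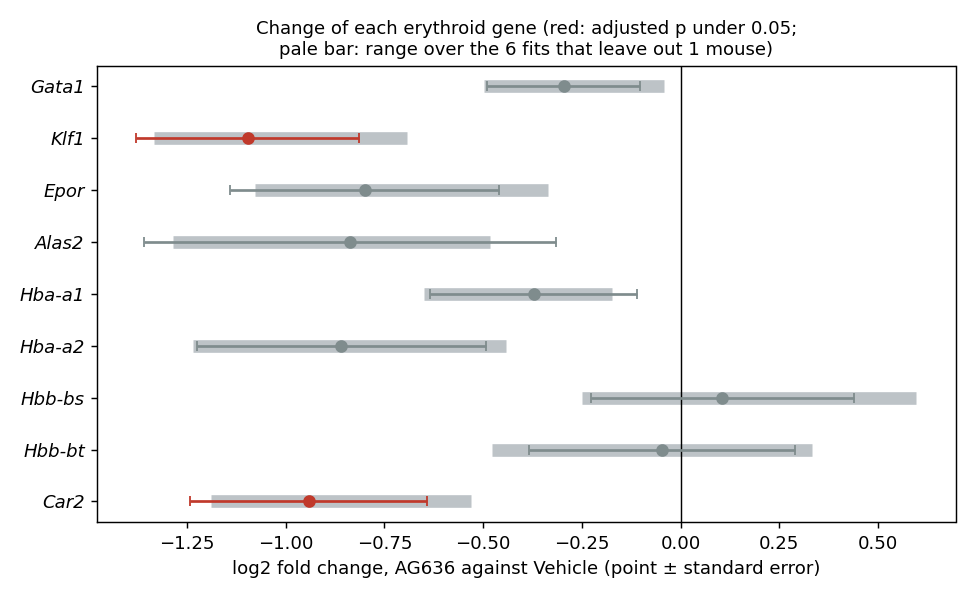
Log2 fold change of each erythroid gene, AG636 against Vehicle, as a point with its standard error from edgeR, over a pale bar that spans the 6 fits leaving out 1 mouse each, with called genes in red. The bars of Gata1, Klf1, Epor, Alas2, both α globins and Car2 stay below 0, whereas those of Hbb-bs and Hbb-bt cross it.

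The ratio of 2 genes' counts within one mouse does not depend on the scaling of the library. The ratios below were chosen after the levels had been seen, 9 were computed, and counts of 3' end libraries do not scale with transcript length. The α globin counts over the β globin counts were 0.916, 1.15 and 0.958 with Vehicle and 0.691, 0.596 and 0.522 with AG636. Reads shared by copies may have been counted differently for the α and β pairs, so the level of this ratio does not measure the balance of the chains. Every AG636 mouse was below every Vehicle mouse, although neither pair of genes was called on its own. The mean difference was -0.74 on the log2 scale, and lay between -0.85 and -0.64 when each mouse was left out in turn. The exact permutation test gave p = 0.1, the smallest possible for 3 against 3, and 0.18 after Benjamini-Hochberg adjustment over the 9 ratios, as for each ratio given below at p = 0.1. The β globin counts over those of Klf1 were 9.99, 10.7 and 7.59 with Vehicle and 17.0, 24.9 and 23.1 with AG636, a log2 difference of 1.19 (exact permutation p = 0.1). The groups thus separated for the β globins relative to Klf1, while the α globins relative to Klf1 overlapped (log2 difference 0.45, exact permutation p = 0.3). Klf1 alone did not overlap between the groups, so the separation of ratios with Klf1, here and below, is not independent of that.

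Relative to Gata1, Klf1 was at 0.819, 0.646 and 0.673 with Vehicle and 0.485, 0.448 and 0.323 with AG636, a log2 difference of -0.78. Car2 relative to Gata1 was at 2.60, 2.04 and 2.09 with Vehicle and 1.46, 1.86 and 1.07 with AG636, a log2 difference of -0.64. Neither ratio overlapped between the groups (exact permutation p = 0.1 for each), whereas that of Epor to Gata1 did (log2 difference -0.51, p = 0.2). The ratio of Gata2 to Gata1, which moves from high to low in normal erythroid commitment, was 0.540, 0.915 and 1.38 with Vehicle and 1.63, 1.66 and 2.06 with AG636. All AG636 mice were above all Vehicle mice, with a log2 difference of 1.01 (exact permutation p = 0.1). Without Vehicle replicate 1 the difference was 0.66, and it ranged up to 1.33 when each mouse was left out in turn. Gata2 alone did not overlap between the groups (log2 fold change 0.75), whereas Gata1 was not called. The separation of this ratio is thus not independent of that of Gata2. The other ratios computed, Hba-a2 over Hba-a1 and Hbb-bs over Hbb-bt, overlapped (log2 differences -0.39 and 0.31, exact permutation p = 0.2 and 0.3).

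**Figure D3:**
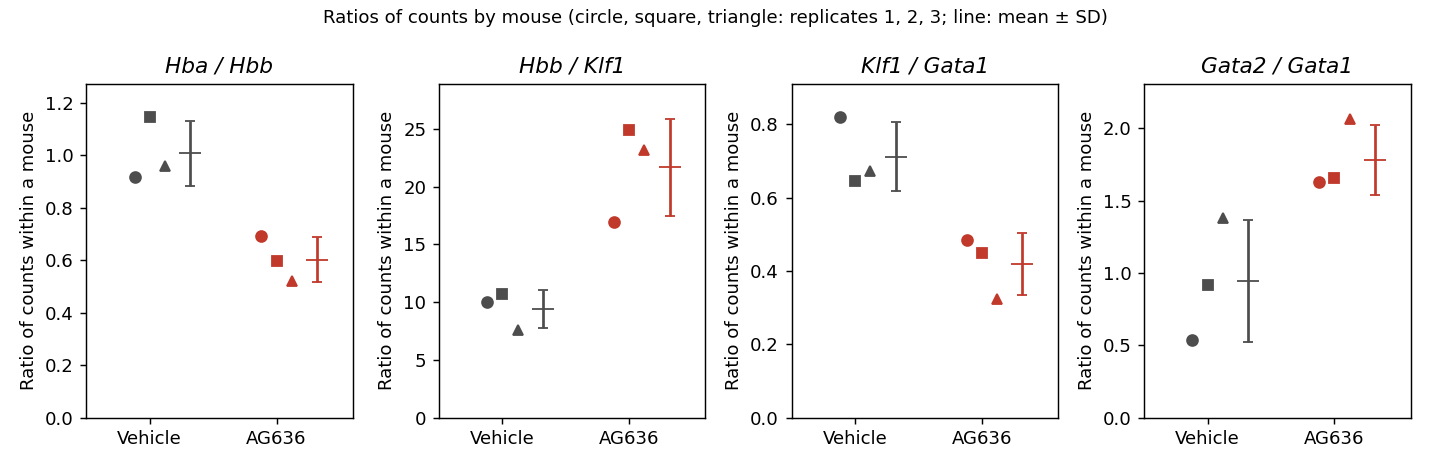
Ratio of counts within each mouse (linear axes from 0) for α over β globins, β globins over Klf1, Klf1 over Gata1 and Gata2 over Gata1, with Vehicle in grey, AG636 in red, circles, squares and triangles for replicates 1, 2 and 3, and the mean ± SD of 3 mice. The groups do not overlap in any of the 4 panels.

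The rest of the erythroid program was described with 7 lists of 98 genes, of which 88 were tested. Of these 88, 23 were called lower, or 26.1% against 11% of all genes tested. Called higher were 7, against 10.3% of all genes tested. The lists were chosen with earlier results of these data known, so an excess over these shares is a description and not a test. The median log2 fold change of the 88 genes was -0.23. In the directions in which edgeR called 0 genes of a list, DESeq2 and limma-voom also called 0, and, except for 1 heme gene, 0 genes had an unadjusted p under 0.05. Without Vehicle replicate 1 the number called lower was 5, without Vehicle replicate 2 it was 7, without AG636 replicate 1 it was 4 and without AG636 replicate 3 it was 5. Over the same fits the number called higher was 3 each. Of the 23 genes 3 were called in each of the 6 fits that leave out 1 mouse, Tfrc, Slc11a2 and Steap3, and of the 7 genes 1 was, Gata2.

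Among 12 erythroid transcription factors and cofactors other than Gata1 and Klf1, 2 were called lower and 1 higher, with a median log2 fold change of -0.22. The share called lower was 16.7%, against 11% of all genes tested, and 10.3% of all genes were called higher. Tal1, a partner of GATA1, fell by 0.68 (SE 0.18, adjusted p = 0.0269), from 182, 131 and 112 CPM with Vehicle to 77.3, 96.3 and 91.2 CPM with AG636. Gfi1b, a repressor needed for erythroid and megakaryocytic development, fell by 0.62 (SE 0.16, adjusted p = 0.0250). Gata2 moved the other way. It was at 151, 175 and 209 CPM with Vehicle and 272, 290 and 340 CPM with AG636, and rose by 0.75 on the log2 scale (SE 0.15, adjusted p = 0.00896, edgeR for all). Gata2 is also a marker of mast cells and basophils. Of 12 such markers 8 were tested and 2 called higher, Gata2 itself and Cpa3, against 10.3% of all genes tested. The 12, with Gata2 included, summed to 621 to 984 CPM with Vehicle and 913 to 1703 CPM with AG636. Of these, 2 defining genes were at 0 in all libraries, Cma1 and Tpsab1. The call of Cpa3 was lost with DESeq2, limma-voom and the replicate block and in 5 of the 6 fits that leave out 1 mouse (adjusted p up to 0.145). Zfpm1, which encodes the GATA1 cofactor FOG1, and Cbfa2t3, the most abundant by mean CPM, had log2 fold changes of -0.25 and 0.47 and were not called. The calls of Tal1 and Gfi1b were lost without Vehicle replicate 1, AG636 replicate 1 or AG636 replicate 3, and that of Tal1 also without Vehicle replicate 2, with adjusted p of at most 0.0934 and 0.0926. With the replicate number as a block Tal1 was not called either, and 1 gene of the list was called lower.

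Of 15 genes of erythropoietin receptor signaling, 0 were called lower and 3 higher, against 11% and 10.3% of all genes tested, and 13 had a log2 fold change above 0, with a median of 0.53. Most of them also serve other cytokine receptors. Without AG636 replicate 2 the median of the list was 0.32 and 4 of its genes had a log2 fold change below 0. Pim1, a kinase gene induced by STAT5, rose by 0.99 (SE 0.22, adjusted p = 0.0137), from 272, 255 and 415 CPM with Vehicle to 514, 811 and 549 CPM with AG636. Lyn, a Src family kinase, rose by 0.65 (adjusted p = 0.0325), and Sh2b3, an adaptor that restrains the receptor's signal, rose by 0.53 (adjusted p = 0.0314, edgeR for all). Exons of Sh2b3 overlap those of Atxn2 on the opposite strand, which held 1296 counts against 1323. Grb2, an adaptor and with Pim1 one of the most abundant genes of the list, was at 0.17 without a call. The call of Pim1 was lost without Vehicle replicate 2 (adjusted p = 0.0576), that of Lyn in 4 of the 6 fits that leave out 1 mouse (adjusted p up to 0.119) and that of Sh2b3 in 5 of them (up to 0.113). The number called higher was 1 without Vehicle replicate 1 and 1 without AG636 replicate 1, 2 without Vehicle replicate 2, AG636 replicate 2 or AG636 replicate 3, and 4 without Vehicle replicate 3. Epor itself, by contrast, had a log2 fold change below 0 in every one of these fits.

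Of 14 other genes of heme synthesis, 12 had a log2 fold change below 0, 6 were called lower and 0 higher, and the median was -0.52. The share called lower was 42.9%, against 11% of all genes tested, and 10.3% of all genes were called higher. The called genes include several steps: Alad (-0.62) forms the pyrrole unit, Uros (-1.61) closes the ring, Ppox (-0.86) oxidizes it, and Tmem14c and Slc25a37 (-0.55 and -0.50) encode mitochondrial transporters of a heme precursor and of iron. Tmem14c, one of the most abundant, was at 735, 595 and 518 CPM with Vehicle and 393, 469 and 398 CPM with AG636 (adjusted p = 0.0247). Uros was at 16.4, 7.98 and 6.90 CPM with Vehicle and 4.46, 3.92 and 1.89 CPM with AG636 (adjusted p = 0.0259, edgeR). In both genes each AG636 mouse was below each Vehicle mouse, as in 7 of the 14 genes, against 20.6% of all genes tested. At an unadjusted p under 0.05, 1 gene of the list was higher in edgeR, and DESeq2 and limma-voom called 0 higher. Cpox, the other most abundant gene, was at -1.09 with an adjusted p of 0.0505. Exons of Ppox overlap those of B4galt3 on the opposite strand, with 849 and 1062 counts. The number called lower was 0 without Vehicle replicate 1, AG636 replicate 1 or AG636 replicate 3, 1 without Vehicle replicate 2, and 7 without Vehicle replicate 3 or AG636 replicate 2.

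Of 10 other globins and globin partners, 2 passed the filter and neither was called by edgeR, DESeq2 or limma-voom or had an unadjusted p under 0.05. The embryonic β-like globin Hbb-y was at 19.6, 20.3 and 9.82 CPM with Vehicle and 9.56, 17.7 and 2.27 CPM with AG636 (log2 fold change -0.77 ± 0.53 (SE), adjusted p = 0.322). Eif2ak1, the heme-regulated kinase that restrains globin translation, was at -0.078 (adjusted p = 0.765, edgeR), and its exons overlap those of Aimp2 on the opposite strand. Hbb-bh2 and Hbb-bh3 had 0 counts in all libraries, and Ahsp was not analysed here.

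Genes of the red cell membrane and cytoskeleton had the lowest median of the 7 lists, -1.06. Of 18 tested, 8 were called lower, or 44.4% against 11% of all genes tested, and 0 higher, against 10.3%. Add2, an adducin of the membrane skeleton, was at 192, 114 and 65.2 CPM with Vehicle and 27.2, 57.5 and 11.7 CPM with AG636, and fell by 1.95 (SE 0.50, adjusted p = 0.0237). Dmtn, which encodes the actin bundler dematin, fell by 1.94 (adjusted p = 0.0262) at levels of 1.13 to 18.0 CPM, and Ermap, an erythroid surface protein, fell by 1.90 (adjusted p = 0.0220). Aqp1, the water channel of the red cell, had the highest mean CPM of the list, 577, 378 and 253 CPM with Vehicle and 164, 223 and 128 CPM with AG636, and fell by 1.23 (SE 0.28, adjusted p = 0.0159, edgeR for all). In each of these 4 genes the AG636 mice were below all Vehicle mice, with AG636 replicate 3 the lowest. The 4 were named for their low adjusted p in these data, so this adds no separate evidence. Such a separation was seen in 9 of the 18 genes, against 20.6% of all genes tested. Rhd and Ank1 were also called lower, at levels 3.15- and 3.33-fold lower with AG636. Epb41, a cytoskeletal linker gene and the second of the most abundant, is transcribed in many cell types and was at 0.023. The number called lower was 1 without Vehicle replicate 1, Vehicle replicate 2, AG636 replicate 1 or AG636 replicate 3, and 10 without Vehicle replicate 3 or AG636 replicate 2.

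Of 13 genes of iron uptake and handling, 5 were called lower and 0 higher, with a median of -0.37. The share called lower was 38.5%, against 11% of all genes tested, and 10.3% of all genes were called higher. Steap3, the ferrireductase that acts on iron released from transferrin in the endosome, was at 115, 79.0 and 43.9 CPM with Vehicle and 20.6, 22.9 and 16.8 CPM with AG636, and fell by 1.99 (SE 0.31, adjusted p = 0.00433). Tfrc, the transferrin receptor, fell by 1.32 (SE 0.28, adjusted p = 0.0125), from 316, 204 and 185 CPM to 90.3, 133 and 59.3 CPM. Slc11a2, which carries the reduced iron out of the endosome, fell by 1.19 (SE 0.25, adjusted p = 0.0115, edgeR for all). These 3 genes of consecutive steps did not overlap between the groups and were called whichever mouse was left out, with adjusted p of at most 0.0467. In 7 of the 13 genes each AG636 mouse was below each Vehicle mouse, against 20.6% of all genes tested. Tfr2, an iron sensor that associates with the erythropoietin receptor, fell by 0.90 (adjusted p = 0.0140), a call lost without AG636 replicate 1 or AG636 replicate 3, where the adjusted p reached 0.0537. The iron exporter gene Slc40a1 was 2.82-fold lower (adjusted p = 0.0306), a call lost in 4 of the 6 fits, those without Vehicle replicates 1 or 2 or AG636 replicates 1 or 3. Fth1, the ferritin heavy chain gene, and Pcbp2, which encodes an iron chaperone and RNA-binding protein, were the most abundant and were at -0.20 and -0.23 without a call. Tfrc is expressed in many dividing cells and is not specific to erythroid cells.

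Of 14 genes of red cell enzymes and late maturation, 2 were called lower and 3 higher, with a median of -0.23. The share called lower was 14.3%, against 11% of all genes tested, and 10.3% of all genes were called higher. Pklr, the pyruvate kinase of red cells and liver, was at 107, 60.3 and 46.6 CPM with Vehicle and 23.8, 32.0 and 7.17 CPM with AG636, and fell by 1.77 (SE 0.45, adjusted p = 0.0224). Prdx2, an abundant red cell peroxidase, fell by 0.62 (adjusted p = 0.0354), and its exons overlap those of Junb and Rnaseh2a on the opposite strand, which held 2195 and 2926 counts against 13199. Mxi1, Nt5c3 and Adipor1, which act in MYC antagonism, pyrimidine nucleotide breakdown and adiponectin signaling, rose by 0.54, 0.50 and 0.41 (adjusted p = 0.0285, 0.0291 and 0.0494, edgeR for all). The call of Adipor1 was lost in each of the 6 fits that leave out 1 mouse. The number called lower was 0 without Vehicle replicate 1, Vehicle replicate 2 or AG636 replicate 1, 1 without AG636 replicate 3, 3 without Vehicle replicate 3 and 4 without AG636 replicate 2. The number called higher was 0 without Vehicle replicate 1, Vehicle replicate 2 or AG636 replicate 3, 1 without Vehicle replicate 3 or AG636 replicate 1, and 2 without AG636 replicate 2.

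**Figure D4:**
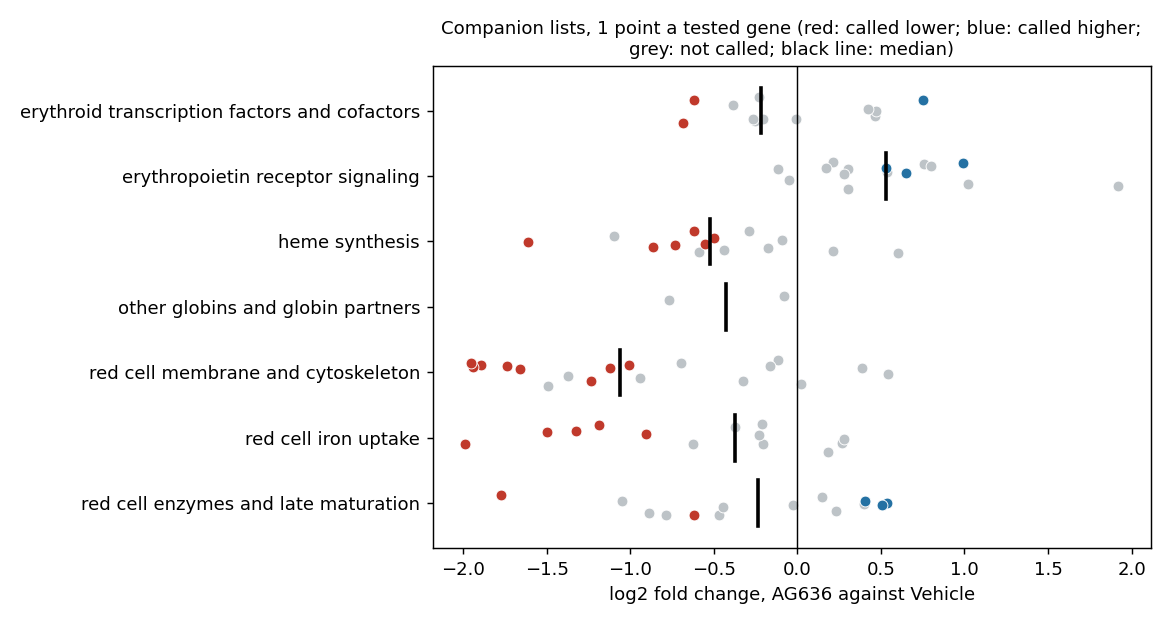
Log2 fold change, AG636 against Vehicle, of the 88 tested genes of the 7 companion lists, 1 point a gene, with genes called lower in red, called higher in blue, others in grey, and a black line at the median of each list. Called genes of the heme, membrane and iron lists lie to the left of 0, and those of erythropoietin receptor signaling lie to the right, with a median of 0.53.

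Car2 was also set beside the other members of its family. Of 15 other carbonic anhydrase genes, 5 passed the filter and 0 were called in either direction by edgeR, DESeq2 or limma-voom, with 0 at an unadjusted p under 0.05, against 21.3% of all genes tested that were called. Car1, the other abundant carbonic anhydrase of red cells, was at 278, 191 and 181 CPM with Vehicle and 79.4, 258 and 40.2 CPM with AG636. AG636 replicate 2 lay within the Vehicle range and the other AG636 mice below it, and the log2 fold change was -0.79 ± 0.51 (SE) with an adjusted p of 0.296. Without AG636 replicate 2 Car1 was called lower, at -1.86 with an adjusted p of 0.00480 (edgeR), and it was the only carbonic anhydrase of the list called in any of the 6 fits that leave out 1 mouse. Car13 was at -0.44 with an adjusted p of 0.165 (edgeR), at 9.13 to 15.3 CPM. The same mouse, AG636 replicate 2, had the highest level of its group for Epor, both α and both β globins, Gata1 and Car2.

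The 9 genes did not follow one another equally across the 6 mice. As a description over 6 libraries that share one scaling and the difference between treatments, Pearson's r of the log2 CPM was 0.972 between Klf1 and Car2, 0.964 between Epor and Car2 and 0.923 between Klf1 and Epor. It was 0.969 between Hba-a1 and Hba-a2 and 0.968 between Alas2 and Hba-a1. Hbb-bs followed Hbb-bt at 0.823, and its r with Klf1, 0.332, was the lowest of all pairs. Over all genes tested, the patterns most like that of Klf1 were those of Prdx2 (0.998), Pithd1 (0.998) and Zfp956 (0.994). Those most like Car2 were Nup153 (0.999), Hspa4l (0.995) and Abcg4 (0.995), those most like Epor were Kti12, Bola3 and Hist4h4 (0.992 to 0.994), and those most like Gata1 were Ssbp3, Fam53b and Wdr81 (0.979 to 0.988). For Alas2 they were Caprin2, Ilvbl and Tut7 (0.984 to 0.994), for Hba-a1 Abcb8, Cox6b2 and 2600006K01Rik (0.980 to 0.990), and for Hba-a2 Mpv17l2, Mafk and Gm8960 (0.991 to 0.997). For Hbb-bs they were Ggact, R3hdm1 and Zbp1 (0.983 to 0.984), and for Hbb-bt Slc25a28, Gbp7 and Scpep1 (0.983 to 0.986). Each of these is the highest of 11092 values taken over 6 points, and its size is a description only.

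Other lineages were measured with the same fit. The megakaryocyte and platelet lineage shares GATA1, TAL1 and GFI1B with the erythroid one. Of 9 tested markers of it, 0 were called lower (1 at an unadjusted p under 0.05 in edgeR, 1 by DESeq2 and 0 by limma-voom). Called higher were 2, Itga2b and Gp9, against 10.3% of all genes tested. Without AG636 replicate 3 neither was called (adjusted p of Gp9 0.0506), and the call of Itga2b was also lost without Vehicle replicate 1, Vehicle replicate 3 or AG636 replicate 1 (adjusted p up to 0.127). Their summed level was 890 to 1341 CPM with Vehicle and 1162 to 1917 CPM with AG636, and Tubb1 was at 0 in all libraries. Eosinophil markers, another lineage that uses GATA1, summed to 144 to 401 CPM with Vehicle and 28.7 to 152 CPM with AG636, with Epx called lower and Il5ra called higher among 4 tested. DESeq2 called neither of them, and leaving out 1 mouse lost the call of Epx in 4 of 6 fits (adjusted p up to 0.0891) and that of Il5ra in 5 of 6 (up to 0.102). B cell markers summed to 37.6 to 73.6 CPM with Vehicle and 42.1 to 111 CPM with AG636, and those of T and NK cells to 200 to 333 CPM and 260 to 501 CPM. Nkg7 made up most of the last sum, at 191 to 326 CPM and 253 to 493 CPM, and Cd3d, Cd3e, Cd3g, Cd4, Cd8a and Klrd1 were each at most 2.45 CPM in every library. The part of these lineages in the values of Gata1, Tal1, Gfi1b and Gata2 was not tested.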

How the data were processed

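Total RNA of sorted I1DN cells from 6 mice was made into QuantSeq 3' libraries. The authors deposited raw read counts per gene, without normalization. Per the submitters' processing notes, reads were trimmed with cutadapt 1.9.1, mapped to GRCm38 (mm10) with HISAT2 2.0.4 and counted with featureCounts of Subread 1.5.0-p3. Some versions differ from those in the study's methods. The annotation release, strand use and treatment of multi-mapping reads are not given in the sources used here, and no molecular identifiers are described. The deposited gene length was not used in any test.

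Symbols were taken from GENCODE and were found for 54723 of 54838 genes, of which 98.7% had the same start and end there. The fit used edgeR 4.0.16 under R 4.3.3, with filterByExpr (min.count 10, min.total.count 15), TMM, glmQLFit and glmQLFTest. Fold changes are AG636 against Vehicle, the standard error (SE) is the size of the log2 fold change divided by the square root of F, and p was adjusted by Benjamini-Hochberg over all genes tested, threshold 0.05. CPM use the TMM-scaled library sizes, and log2 CPM for correlations have a prior count of 2. Single values were compared with an exact two-sided permutation test. On simulated data edgeR called 76.0% of 200 genes changed by 1 on the log2 scale, with 9 false calls among 10949 genes. The changed genes were drawn only from genes with many counts, and all others were left unchanged. The share therefore does not apply to genes with few counts, such as Alas2. Pairs of replicates differed by more than sampling noise (chi-square per degree of freedom 6.67 to 15.6), and each was counted once. Nothing in the labels says more of the mice than their number, so p measures the spread between these samples.

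The 9 genes and all lists were chosen with earlier results of these data known. The companion genes named are, per list, up to 4 called genes in each direction by adjusted p and the 2 of highest mean CPM, and for each of the 9 genes the 3 with the highest Pearson r. Alad, Slc25a37, Rhd, Ank1, Slc40a1, the marker genes and the genes at 0 were named after their values were seen. Some genes counted in the lists are not reported here by name. Alternatives were DESeq2 1.42.0, limma-voom (limma 3.58.1), median-of-ratios size factors, library size alone, no filter, a filter of 10 counts in all samples, the replicate number as a block, each mouse left out and the globin pairs added. Leaving out each mouse for the ratios was chosen after seeing the data.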

Additional observations from a re-analysis of the deposited data

How the results depend on the processing

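Klf1 kept its direction under every alternative run and its call under the 7 that keep all 6 mice and do not add the globin pairs. Leaving out each mouse in turn gave log2 fold changes of -1.33 to -0.69 for Klf1 and -1.19 to -0.53 for Car2. Car2 was at -0.96 with DESeq2, -0.90 with limma-voom and -0.85 with library size alone, without a call in any of them. Epor was called lower with DESeq2 (-0.81) and, with Alas2 (-0.86), Hba-a1 (-0.40) and Hba-a2 (-0.89), without the filter (-0.82 for Epor), where 21371 genes were tested. The cause was not tested. Leaving out each mouse gave -1.08 to -0.34 for Epor, -1.28 to -0.48 for Alas2, -0.65 to -0.17 for Hba-a1, -1.23 to -0.44 for Hba-a2, -0.25 to 0.60 for Hbb-bs and -0.48 to 0.33 for Hbb-bt. Hbb-bt was at 0.048 with library size alone, against -0.047, and the summed β globin pair was at 0.056, a value of the pair and not of either gene. The number of the 9 genes called lower was 1 with limma-voom, 1 with library size alone and 6 without the filter, and 0 to 5 when each mouse was left out. Without the filter 35 companion genes were called lower and 12 higher, and leaving out each mouse gave 4 to 29 lower and 3 to 7 higher. Over all genes these fits called 452 to 1298 lower and 399 to 1074 higher, against 1222 and 1146. The median of the transcription factors ranged from -0.37 to 0.089, above 0 without Vehicle replicate 1, and that of the other globins 0.19 without the filter, which lets more of them in. With library size alone the median of all genes moved to 0.12 and 38.1% of the calls were lower, against 51.6%.

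Mice of the same number are different animals. Their deviations from the group means correlated at -0.057, -0.18 and 0.22, and only Vehicle replicate 3 correlated best with its own number. Whether mice of the same number shared a batch cannot be told from these values. With the replicate block 2 of the 9 genes were called lower, as without it, Klf1 at -1.03 (adjusted p = 0.0109 in edgeR) and Car2 at -0.89 (adjusted p = 0.0336 in edgeR). Among the companion genes 25 were called lower and 6 higher with the block, against 23 and 7.

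Depth limits Alas2 most, at 14 to 100 counts per library.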
